A study of Homo sapiens with 12 samples.

Results

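Peaks of open chromatin were described at 10 genes of the MYC network and of cellular glucose sensing, which were MYC, MYCN, MYCL, MAX, MXD1, MXI1, MNT, MLXIP, MLXIPL and TXNIP. Each gene stood for a window, its RefSeq span on GRCh38 extended by 5 kb on both sides, and every peak overlapping that window was used. The members were 10 of 59098 gene windows. Peaks of all libraries that overlapped by at least 1 bp were merged into 178040 regions, of which 76 overlapped the windows of the members, counted with all their peaks even where a region ran past the edge of a window.

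The series profiled open chromatin of the pancreatic ductal adenocarcinoma line MIAPaCa2 with ATAC-seq, where Tn5 transposase cuts accessible DNA and tags it for sequencing. Parental cells and cells resistant to sodium oxamate, which blocks lactate dehydrogenase, were taken untreated, which meant vehicle (PBS), or treated with oxamate for a day. The resistant cells were polyclonal populations that had survived weeks of culture in oxamate, and they came from this single line. The 4 groups (Parental-Untreated, Parental-treated, Resistant-Untreated and Resistant-treated) had 3 libraries each, every library with its own peak list, and nothing in the labels says that the replicates were separate cultures, so p-values measured only the spread between these libraries.

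MYC and its relatives MYCN and MYCL are basic helix-loop-helix leucine zipper factors that activate growth and metabolic genes as dimers with MAX, which binds the E-box. MXD1, MXI1 and MNT compete for MAX and repress the same kind of site. MLXIP (MondoA) and MLXIPL (ChREBP) dimerize with MLX, respond to glucose-derived metabolites and bind carbohydrate response elements, and TXNIP, which restrains glucose uptake, is their best known target.

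Before any group was compared, 8 of the 9 members with a promoter in the RefSeq list used here had a peak over at least 1 promoter in all 12 libraries, the exception being MYCN. MYC had no promoter in that list, so it was left out of the promoter and motif search. The promoters shown are those that hold a searched motif and those of the genes on which the group comparisons turn. Each run gives the 250 bases before the start site on the coding strand, from RefSeq (GRCh38.p14), with capitals marking a motif match. The motifs searched, on both strands of the window from 250 bases before to 50 bases after the start, were the E-box CACGTG and the carbohydrate response element built of CACGNG and CNCGNG separated by 5 bases. The TXNIP promoter (chr1:145996580-145996829, minus strand) held a carbohydrate response element at positions -88 to -72 from the start.
TXNIP: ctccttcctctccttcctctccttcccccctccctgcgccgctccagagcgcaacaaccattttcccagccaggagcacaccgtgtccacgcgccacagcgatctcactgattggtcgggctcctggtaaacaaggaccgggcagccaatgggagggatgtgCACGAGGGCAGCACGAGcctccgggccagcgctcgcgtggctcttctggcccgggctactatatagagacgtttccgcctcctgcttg
The same element was found at positions -70 to -54 before the start of MXI1 at 110210231 (chr10:110209981-110210230, plus strand), which had a peak in 3 libraries.
MXI1: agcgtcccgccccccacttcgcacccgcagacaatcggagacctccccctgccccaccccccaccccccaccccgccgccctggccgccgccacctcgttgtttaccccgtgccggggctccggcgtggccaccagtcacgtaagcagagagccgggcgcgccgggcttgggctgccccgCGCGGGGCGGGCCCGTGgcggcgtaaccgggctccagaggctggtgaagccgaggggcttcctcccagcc
An E-box lay at positions -193 to -188 in the promoter of MNT (chr17:2401061-2401310, minus strand).
MNT: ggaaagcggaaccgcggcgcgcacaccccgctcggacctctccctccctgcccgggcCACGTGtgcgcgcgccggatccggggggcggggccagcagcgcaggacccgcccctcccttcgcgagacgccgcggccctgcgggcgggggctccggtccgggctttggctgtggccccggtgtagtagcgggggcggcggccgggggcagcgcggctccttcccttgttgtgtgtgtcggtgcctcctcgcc
Neither set of letters occurs in this window of MYCL (chr1:39901918-39902167, minus strand), the member called between phenotypes, or MYCN (chr2:15940300-15940549, plus strand), whose nearest region was missed in 1 group.
MYCL: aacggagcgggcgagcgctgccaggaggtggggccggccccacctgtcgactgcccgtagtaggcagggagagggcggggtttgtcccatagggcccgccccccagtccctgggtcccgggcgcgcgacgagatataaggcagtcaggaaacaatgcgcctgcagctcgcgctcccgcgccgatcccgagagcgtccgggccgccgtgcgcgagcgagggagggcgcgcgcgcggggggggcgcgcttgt
MYCN: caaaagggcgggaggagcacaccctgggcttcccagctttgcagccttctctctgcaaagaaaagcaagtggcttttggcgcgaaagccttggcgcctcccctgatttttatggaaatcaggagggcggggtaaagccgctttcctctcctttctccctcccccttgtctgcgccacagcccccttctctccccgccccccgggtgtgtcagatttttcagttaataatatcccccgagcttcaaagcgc
Of 34961 listed promoters, 7.27% held the E-box and 0.503% the carbohydrate response element. A match is a string of letters and not a measured binding site.

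Presence of a peak at these promoters was the common state of the members. The 9 members had 13 listed promoters, and peaks lay in all 12 libraries over those of MYCL, MXD1, MNT, MLXIP and MLXIPL, over 1 of the starts of MAX and TXNIP and over a pair of the starts of MXI1. The second start of MAX at 65101684 and that of TXNIP at 145995744 had a peak in 0 libraries. Over all listed promoters, 35.6% had a peak in 12 libraries and 50.7% had none, and over those of protein-coding genes the shares were 46.7% and 38.1%.

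The peak lists held 46401 to 63259 peaks and carried no read counts. Covered bases averaged 23.7 ± 2.64 Mb (SD, n = 3) in untreated parental, 17.2 ± 2.97 Mb in treated parental, 28.9 ± 4.28 Mb in untreated resistant and 26.6 ± 4.77 Mb in treated resistant libraries. The narrowest peak of a list, a stand-in for its mean fragment length, measured 67 to 87 bp in parental and 94 to 124 bp in resistant libraries, so fragment length and phenotype cannot be told apart in these libraries. Relative depth, with the shallowest library at 1, ranged up to 2.77 in the parental treated group. As a check of the label, KRT8, KRT18, VIM and GATA6 had peaks at a gene end, at a distance of up to 1 kb, in 12 of 12 libraries, and PTPRC, CD3E, ALB, INS, GCG and PECAM1, markers of leukocytes, hepatocytes, islets and endothelium, in 0.

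Among the 76 member regions, 22 were called in all 12 libraries, which is 28.9% against 13.6% of all regions. A further 26 were called in a single library, 34.2% against 59.5% of all regions, and 28 in 2 to 11 libraries. MNT had 5 of its 8 regions in every library and MYC 3 of 4. MLXIP and MLXIPL, with spans of 68589 and 54706 bp, had 21 and 17 regions, of which 3 each were in every library. MAX and MXI1, with longer spans of 96595 and 79761 bp, had 8 and 7 regions. MYCL had a single region and MYCN a single region. The windows differed in the share of their length under peaks, from a mean of 15.5% for MNT and 14.5% for MYC to 1.48% for MYCN.

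**Figure D1:**
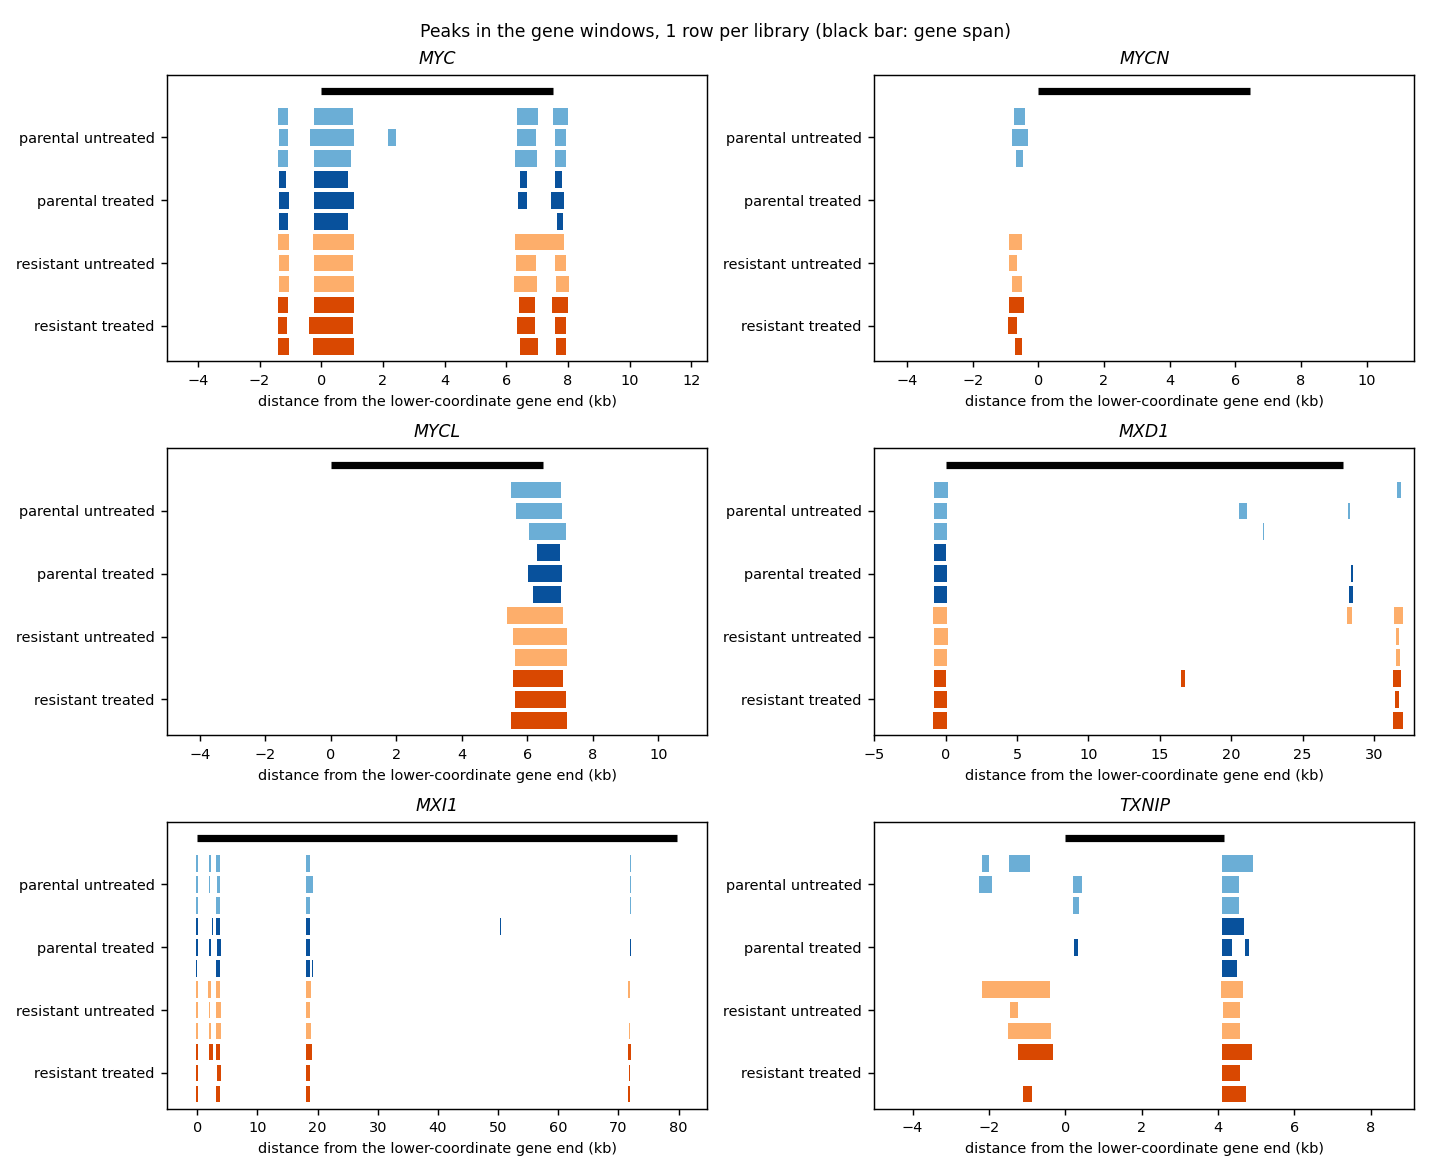
Peaks in the windows of 6 members, 1 row per library and 3 rows per group. The x axis is the distance in kb from the gene end with the lower coordinate, the black bar is the gene span and colored bars are peaks; MYCN has a peak upstream in 9 libraries and in 0 of the 3 parental treated ones, while MYCL has 1 peak in every library that is shortest in the parental treated group.

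MYC, the most widely expressed of the activators, was covered over 2767, 2954 and 2563 bp in the untreated parental libraries and over 1780, 2333 and 1612 bp in the treated parental ones. In resistant cells the window had 3249, 2593 and 2789 bp without and 2709, 2641 and 2541 bp with oxamate. Treated parental libraries therefore lay below the other 3 groups without overlap. The treated minus untreated difference over both phenotypes was -550 bp (exact permutation p = 0.015, adjusted p = 0.318), and the resistant minus parental difference was 419 bp (exact permutation p = 0.05, adjusted p = 0.126). Neither passed after adjustment over all windows.

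The MYC window (chr8:127730434-127747951) held 3 regions called in 12 of 12 libraries. The region at the start of the gene, chr8:127735037-127736508, had 1116 to 1428 bp per library. The region upstream, chr8:127734025-127734377, lay also at CASC11, a long noncoding RNA gene, and had 220 to 344 bp. The region at the far end of the gene, chr8:127741696-127743457, varied most. Its peaks covered 1148, 975 and 1047 bp in untreated parental and 434, 711 and 201 bp in treated parental libraries. In resistant cells it had 1600, 1000 and 1139 bp untreated and 1079, 924 and 899 bp treated. Most libraries had an inner and an outer peak here. A single peak of resistant untreated replicate 1 joined them, so its 1600 bp include the gap. The inner peak covered 658, 616 and 696 bp in untreated parental libraries. It was weak in parental treated replicates 1 and 2 (219 and 277 bp, -log10 q of 1.32 and 1.67) and not called in parental treated replicate 3. The lower MYC values of the treated parental group thus sat mainly at the far end of the gene and less at its start.

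Parental untreated replicate 2 alone had a peak inside MYC, chr8:127737590-127737851, of 262 bp. It had a fold over local background of 11.3 and a -log10 q of 101, at the 99.8 percentile of its list. That peak set the top rank of MYC in this library, where the other 11 libraries had their strongest MYC peak at percentiles from 80.8 to 91.6.

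MYCN, a paralog expressed mainly in neural and embryonic tissue, had 1 weak region at chr2:15939633-15940221. It ended 329 bp before the listed start of MYCN and lay also at MYCNOS, the antisense gene. Its peaks measured 337, 493 and 204 bp in untreated parental libraries and were called in 0 of 3 treated parental libraries. In resistant cells they measured 397, 250 and 295 bp untreated and 470, 249 and 227 bp treated. The region was therefore called in 9 libraries and missed in 1 group. Where called, it had a fold of 3.52 to 5.1, a -log10 q of 1.95 to 4.61 and a rank from the 27.5 to the 48.8 percentile, so it stood in the lower part of every list. The treatment difference in covered bases was -172 bp (exact permutation p = 0.07, adjusted p = 0.375). The interaction, the treatment difference in resistant minus that in parental cells, was 346 bp (exact permutation p = 0.065, adjusted p = 0.839). A difference in the response between phenotypes was thus not shown.

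MYCL, first found amplified in lung cancer, was the only member called. Its region, chr1:39900801-39902642, spanned the start of the gene and was present in every library. It covered 1533, 1409 and 1114 bp in untreated parental and 727, 1017 and 855 bp in treated parental libraries. Resistant libraries had 1701, 1665 and 1597 bp untreated and 1505, 1580 and 1714 bp treated. Within each treatment, every resistant library lay above every parental one. MYCL rose by 518 bp in resistant cells (1627 against 1109 bp; exact permutation p = 0.005, adjusted p = 0.0485), with a p that could not be smaller in this design. Among all 32585 windows with a peak in at least 3 libraries, 10.2% were called higher and 0.0614% lower in resistant cells, so 1 of 10 members was near the background. The call was lost when covered bases were divided by the library total (6.15 bases per Mb, exact permutation adjusted p = 0.466), without flanks (410 bp, exact permutation adjusted p = 0.0951) and with the replicate number as a block (exact permutation adjusted p = 0.156). It was also lost in 10 of the 12 fits that left out 1 library each (differences from 458 to 563 bp, exact permutation adjusted p from 0.0552 to 0.0933), in which no window at all was called; it remained without resistant untreated replicate 2 or resistant treated replicate 2. The rank of the MYCL peak in its list, from the 67.9 to the 86.4 percentile, differed by -0.0846 percentile points between phenotypes (exact permutation p = 0.98). The width of the peak and its rank thus gave different answers.

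MAX, the shared partner of the network, was the member with the smallest phenotype difference in bp. Untreated parental libraries had 1803, 1845 and 2162 bp and treated parental libraries 1249, 1711 and 1260 bp. Untreated resistant libraries had 1725, 1518 and 1581 bp and treated resistant ones 2001, 1323 and 1644 bp. Parental libraries alone separated by treatment, and untreated resistant libraries lay below the untreated parental ones. Resistant minus parental was -39.7 bp (exact permutation p = 0.825, adjusted p = 0.88) and treated minus untreated -241 bp (exact permutation p = 0.165, adjusted p = 0.467). The sign of the former turned under several settings, to 154 bp with peaks of a -log10 q of 3 or more. Divided by the library total, resistant minus parental was -23.6 bases per Mb (exact permutation p = 0.005, adjusted p = 0.106). That p was the smallest of any member on this scale, and it did not pass after adjustment. The promoter region, chr14:65101979-65103606, had 914 to 1499 bp, and a region inside the gene at chr14:65020042-65020468, in the overlapping span of FNTB, was also called in 12 libraries.

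**Figure D2:**
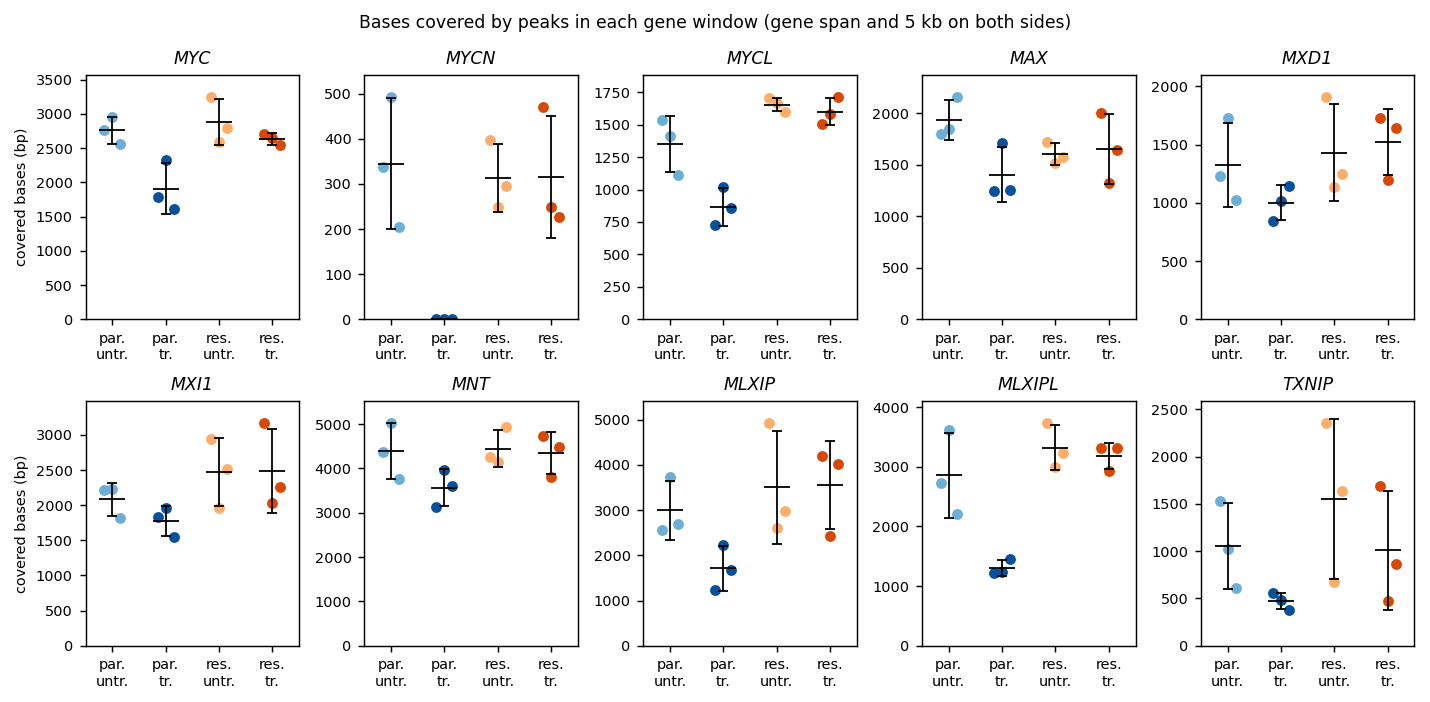
Covered bases (bp, linear axis from 0) in the window of each member, by group (par., parental; res., resistant; untr., untreated; tr., treated). Points are libraries and bars the mean ± SD (n = 3); MYC, MYCN, MYCL, MAX, MLXIP, MLXIPL and TXNIP have all 3 treated parental libraries below the untreated parental ones.

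MXD1, a repressor induced on differentiation, had a peak that ranked above those of all other members in every library except parental untreated replicate 2, where the single MYC peak stood higher. Its promoter region, chr2:69914204-69915247, covered 843 to 998 bp, had a fold of 9.05 to 10.2 and ranked between the 99.2 and 99.9 percentile in every list. Its rank lay at 99.5 to 99.7 in untreated and 99.2 to 99.5 in treated parental libraries, and at 99.8 to 99.9 in all 6 resistant ones. The phenotype difference in rank was 0.321 percentile points (exact permutation p = 0.005, adjusted p = 0.0698) and did not pass. The -log10 q behind these ranks was 32.1 to 71.7 in parental and 66.5 to 125 in resistant libraries.

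Covered bases of the whole MXD1 window were 1227, 1730 and 1029 bp in untreated parental, 843, 1020 and 1142 bp in treated parental, 1911, 1138 and 1246 bp in untreated resistant and 1728, 1195 and 1641 bp in treated resistant libraries. The difference of 311 bp (exact permutation p = 0.11, adjusted p = 0.206) was no larger than the difference at a region beyond the 3′ end at chr2:69946451-69947129. That region, which lay also within 1 kb of ASPRV1, a skin aspartic protease gene, was called in 6 of 6 resistant libraries and in 1 of 6 parental ones. It covered 254, 0 and 0 bp in untreated parental and 0 bp in each treated parental library. In resistant cells it covered 615, 168 and 304 bp untreated and 536, 245 and 662 bp treated. Without the flank, the phenotype difference of MXD1 was -55.7 bp (exact permutation adjusted p = 0.795).

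MXI1, a repressor of the same family, had 3 regions in every library and 3 listed start sites. The window covered 2212, 2231 and 1815 bp in untreated parental, 1829, 1956 and 1544 bp in treated parental, 2940, 1965 and 2517 bp in untreated resistant and 3169, 2032 and 2255 bp in treated resistant libraries. The groups with oxamate did not overlap between phenotypes, and those without did. Resistant minus parental was 548 bp (exact permutation p = 0.035, adjusted p = 0.104), and without resistant untreated replicate 2 it was 676 bp and passed (exact permutation adjusted p = 0.0399). Most fits that left out a library called no window at all, and the share called in this one is not given here.

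At the start of MXI1 at 110225996 the region chr10:110225599-110226814 had main peaks with a fold of 8.15, 7.37 and 6.95 in untreated and 5.97, 6.59 and 5.77 in treated parental libraries. Resistant libraries had folds of 8.65, 8.48 and 10.2 untreated and 9.3, 8.1 and 8.84 treated. All resistant libraries but treated replicate 2 lay above every parental one. The rank of the strongest MXI1 peak was at the 89.3 to 92.6 percentile in parental and the 92.4 to 96.4 percentile in resistant libraries, a difference of 4.4 percentile points (exact permutation p = 0.005, adjusted p = 0.0698). The strongest peak lay in this region in all 6 resistant but 3 of 6 parental libraries. In parental untreated replicate 2 and parental treated replicate 3 it lay in the region chr10:110210698-110211560, with a -log10 q of 21.5 and 10.6. In parental treated replicate 1 it was chr10:110257984-110258053, of 70 bp and found in that library only, with a -log10 q of 10.5.

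MNT, the broadly expressed MAX partner, had the highest coverage per length among the members. It covered 4381, 5024 and 3757 bp in untreated parental, 3132, 3954 and 3606 bp in treated parental, 4261, 4153 and 4936 bp in untreated resistant and 4739, 3814 and 4480 bp in treated resistant libraries. All groups overlapped within each pair compared. The promoter region that holds the E-box shown above, chr17:2401021-2402139, covered 993 to 1108 bp. A region 874 bp into the gene, chr17:2399446-2400186, was stronger, at the 93.5 to 98.5 percentile. The phenotype difference of MNT was 422 bp (exact permutation p = 0.195, adjusted p = 0.302) and the treatment difference -464 bp (exact permutation p = 0.16, adjusted p = 0.462).

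MLXIP, the sensor MondoA, had 2551, 3730 and 2696 bp in untreated parental, 1237, 2219 and 1678 bp in treated parental, 4927, 2602 and 2986 bp in untreated resistant and 4192, 2430 and 4024 bp in treated resistant libraries. With oxamate, resistant libraries lay above parental ones, and without it the groups overlapped. The phenotype difference was 1175 bp (exact permutation p = 0.06, adjusted p = 0.141), and 576 bp with peaks of a -log10 q of 3 or more. The rank of its strongest peak was 6.41 percentile points higher in resistant cells (exact permutation p = 0.045, adjusted p = 0.181) and differed by -5.46 points in treated minus untreated cells (exact permutation p = 0.035, adjusted p = 0.455). Neither passed after adjustment.

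Inside MLXIP, 18960 bp after the start, the region chr12:122097716-122098821 was called in 0 of 3 untreated parental, 1 of 3 treated parental and 6 of 6 resistant libraries. It covered 311 bp in parental treated replicate 3, and in resistant cells 835, 455 and 788 bp untreated and 651, 371 and 849 bp treated. These were weak peaks, with a -log10 q of 1.37 to 2.87. A region beyond the 3′ end, chr12:122151812-122152574, was called in all 3 treated and 0 of 3 untreated resistant libraries, and in 2 of 3 untreated and 0 of 3 treated parental ones. Whether its response to oxamate differed between phenotypes was not tested. In the other direction, chr12:122127000-122127576 was called in 6 of 6 parental and 3 of 6 resistant libraries.

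MLXIPL, the sensor ChREBP best known from liver and fat, had 2732, 3621 and 2208 bp in untreated parental and 1225, 1228 and 1453 bp in treated parental libraries. Resistant libraries had 3732, 2998 and 3238 bp untreated and 3307, 2937 and 3315 bp treated. The treated parental libraries stood below the other 9. The phenotype difference was 1177 bp (exact permutation p = 0.02, adjusted p = 0.0773) and the treatment difference -844 bp (exact permutation p = 0.04, adjusted p = 0.343). The region at the listed start, chr7:73624204-73624784, lay inside the gene span, covered 274 to 538 bp and was called in every library. A further region, chr7:73647674-73648420, spanned the 5′ end of the gene. It covered 283 to 645 bp and was also called in every library. The merged region chr7:73587573-73588209, beyond the 3′ end, was called in 6 of 6 resistant libraries and in 2 of 6 parental ones, but it crossed the edge of the window, which begins at 73588202, by a few bases. Of its peaks, that of parental untreated replicate 2 alone reached into the window, so the contrast in presence lay just outside it and added nothing to the covered bases of resistant libraries.

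TXNIP, the glucose-induced target, had 1531, 1021 and 614 bp in untreated parental, 557, 484 and 382 bp in treated parental, 2355, 672 and 1634 bp in untreated resistant and 1694, 469 and 859 bp in treated resistant libraries. The treated parental values lay below the untreated ones, while the resistant groups overlapped. In both phenotypes each treated library lay below the untreated one of the same replicate number. With that number as a block the treatment difference had an exact permutation p of 0.0312, the smallest the block allows (adjusted p = 0.317). The phenotype difference was 516 bp (exact permutation p = 0.12, adjusted p = 0.218) and the treatment difference -564 bp (exact permutation p = 0.105, adjusted p = 0.408).

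The TXNIP peaks fell mainly into a promoter region and a 3′ flank. The promoter region with the carbohydrate response element, chr1:145996512-145997353, was called in 12 libraries and covered 363 to 808 bp. Its strongest peak per library had a fold of 6.76 to 9.64 and ranked between the 89.4 and 97.5 percentile, at 90.5, 94.6 and 93.3 in untreated parental, 95.8, 97.5 and 93.4 in treated parental, 91.3, 91.1 and 93.8 in untreated resistant and 89.4, 94.8 and 91.7 in treated resistant libraries. The ranks overlapped in each pair of groups (phenotype difference -2.18 percentile points, exact permutation p = 0.115, adjusted p = 0.299). Beyond the 3′ end, chr1:145990166-145992125 covered 723, 341 and 0 bp in untreated parental and 0 bp in each treated parental library. The same flank covered 1778, 220 and 1146 bp in untreated and 931, 0 and 229 bp in treated resistant libraries. Its peaks were weak, with a -log10 q of 1.55 to 4.24. A small region in the gene, chr1:145992632-145992866, was called in 3 of 6 parental and 0 of 6 resistant libraries. Without the flanks the phenotype difference of TXNIP was -78.8 bp (exact permutation adjusted p = 0.322), so the higher coverage in resistant cells lay outside the gene span. With equal numbers of top-ranked peaks it was 70.5 bp.

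**Figure D3:**
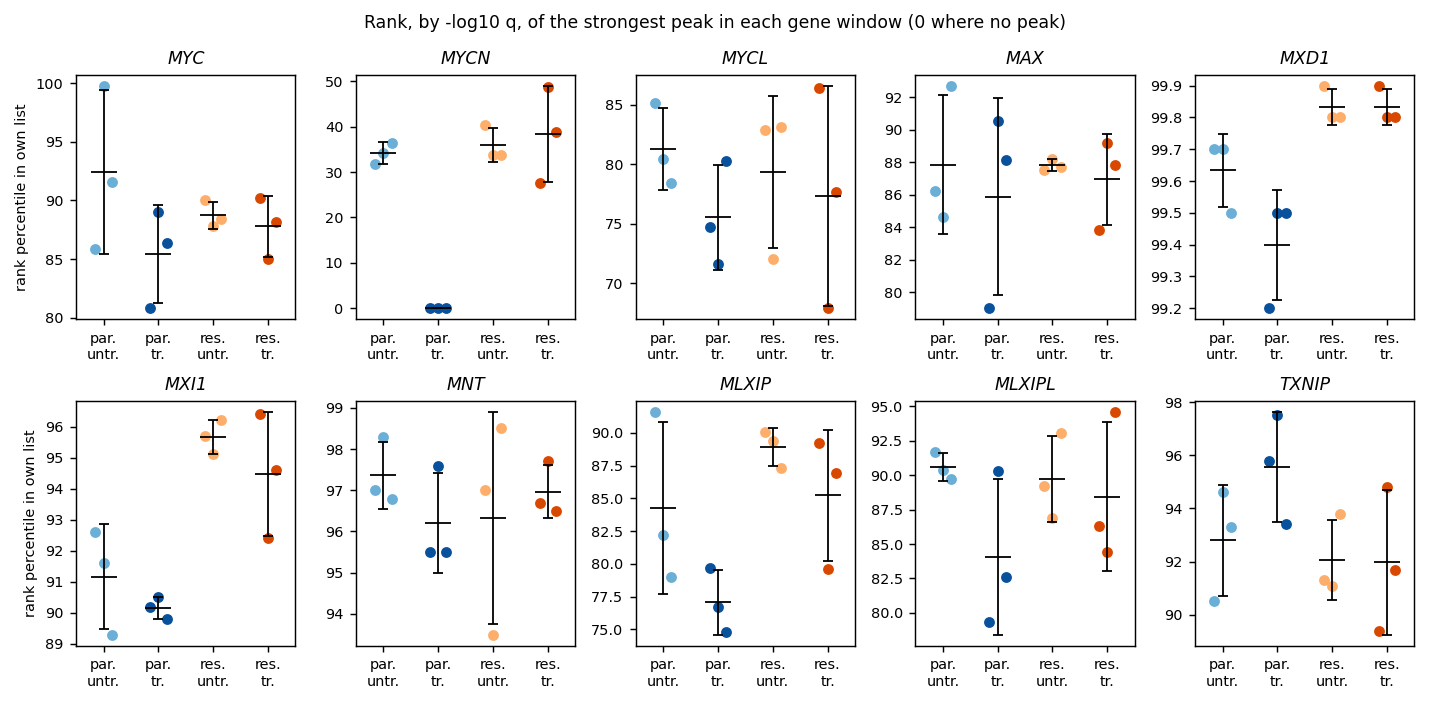
Rank percentile, by -log10 q within its own list, of the strongest peak in each window, by group (0 where no peak was called; the y axes differ and do not start at 0). Points are libraries and bars the mean ± SD (n = 3); MXD1 ranks at 99.2 or above in every library, and MXI1 at 92.4 or above in the resistant ones.

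Over the members as a list, 9 of 10 had more covered bases in resistant than in parental cells, with a median difference of 37.5% of the parental mean. Of all 32585 windows tested, 28651 were higher in resistant cells. The 32194 tested windows with a parental mean above 0 had a median difference of 34.2%, so the members followed a shift seen across the genome. When bases were divided by the library total, the differences of MYC, MXD1, MXI1 and MNT turned to lower in resistant cells. For treatment all 10 members were lower, beside 27614 of the 32585 windows. The median was -18.5%, against -16.1% over the 32439 windows with an untreated mean above 0. On the scale of the library total MAX, MXD1, MXI1 and MNT turned to higher with treatment. By the exact permutation test with Benjamini-Hochberg adjustment, 0 members and 0% of all windows were called by treatment, and 0% by interaction. At an unadjusted p under 0.05, 3 members and 4211 windows passed for treatment, 0 members and 1437 windows for the interaction, and 3 members and 12243 windows for phenotype. For the rank of the strongest peak 0% of 22763 windows were called by either factor, with 3 of 9 members and 5669 windows at an unadjusted p under 0.05 for phenotype and 1 member and 2230 windows for treatment.

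**Figure D4:**
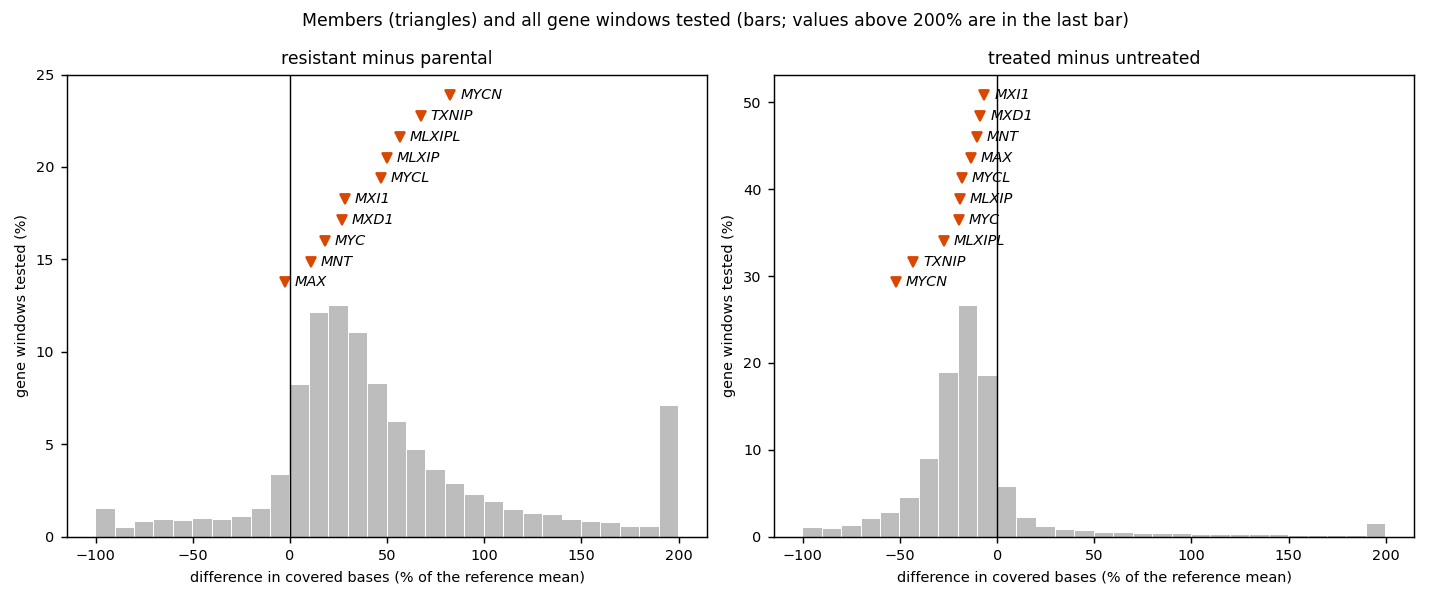
Difference in covered bases, as % of the parental mean (left) or the untreated mean (right), over the windows with a mean above 0 in that reference group (gray bars, % of 32194 windows on the left and 32439 on the right) and for the members (triangles, spread in height for legibility). Members lie within the bulk of both distributions, whose medians are 34.2% and -16.1%; on the scale of the library total MYC, MXD1, MXI1 and MNT change sign on the left and MAX, MXD1, MXI1 and MNT on the right.

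The share of members whose groups did not overlap was read against the same share of all windows. In parental cells 7 of 10 members were lower in every treated library than in every untreated one, against 30.8% of windows, and 0 were higher, against 0.605%. In resistant cells 0 members separated in either direction, against 4.78% of windows lower and 1.3% higher. Between untreated groups, MYCL was higher in resistant cells, against 16.7% of windows, and MAX lower, against 1.11%. Between treated groups 7 members were higher in resistant cells (MYC, MYCN, MYCL, MXD1, MXI1, MLXIP and MLXIPL), against 44.1% of windows, and 0 lower, against 1.04%. These comparisons share groups, and 3 against 3 libraries allow no exact permutation p below 0.1. Mean relative depth was 2.27 ± 0.559 (SD, n = 3) in the treated parental group, against 1.55 ± 0.22, 1.43 ± 0.423 and 1.08 ± 0.0688 in untreated parental, untreated resistant and treated resistant libraries, and the part of depth and peak width in these counts was not tested.

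Regions present in all 3 libraries of a group and absent from all 3 of another were few. With oxamate, parental cells lost 1 of 34 member regions, that of MYCN, against 3.81% of all regions, and gained 0, against 0.483%. Resistant cells gained 1 of 40, in MLXIP, against 0.511%, and lost 0, against 0.59%. Untreated resistant against untreated parental cells gained 1 of 40, in MLXIP, against 1.65%, and lost 0, against 1.04%. Between treated cells the resistant group gained 4 of 37, in MYCN, MXD1, MLXIP and MLXIPL, against 5.82%, and lost 0, against 1.79%. In Fisher's exact test over regions called in 5 to 7 libraries, 0% of 9507 regions were called by phenotype or by treatment after adjustment. Without adjustment 11.4% passed by phenotype and 1.39% by treatment. Of 7 member regions tested, those of MXD1 and MLXIP named above had p = 0.0152 for phenotype (Fisher's exact test, adjusted p = 0.133), and 0 passed for treatment.

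**Figure D5:**
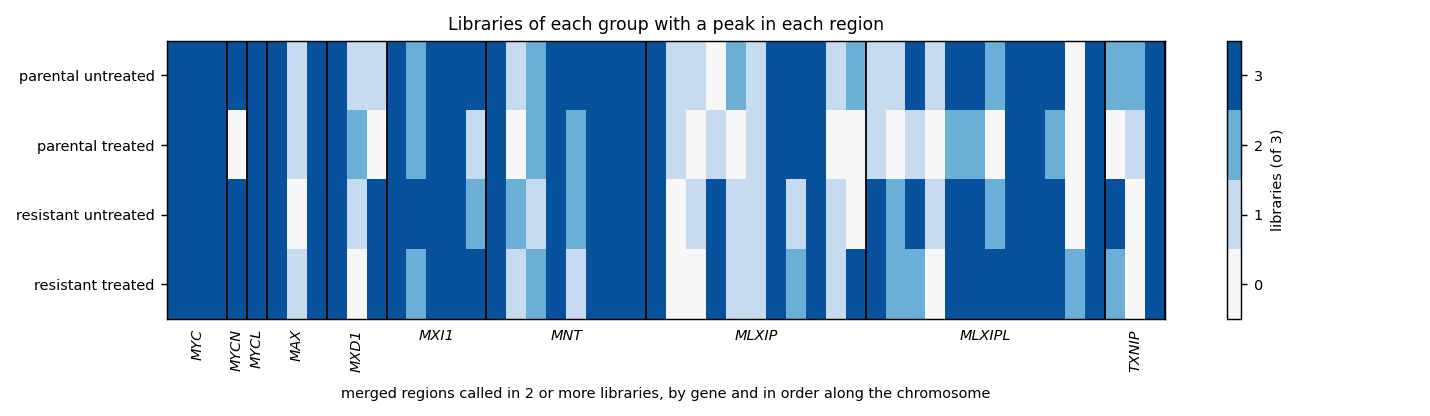
Number of libraries (of 3) with a peak in each member region called in 2 or more libraries, by group (rows), with regions ordered along the chromosome within each gene (columns). The MYCN region is at 0 in the treated parental row, and columns dark in all 4 rows are the 22 regions called in 12 libraries.

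The other genes of the network were described for context. MLX, the partner of MLXIP and MLXIPL, rose by 636 bp in resistant cells (2694 against 2058 bp) and MXD4, a further MAX-binding repressor, by 585 bp (1444 against 859 bp), both with p = 0.005 and adjusted p = 0.0485 in the exact permutation test. Over all windows 10.2% were called higher in resistant cells. No window was called on the scale of the library total, without flanks or with the replicate block, so both calls were lost there. Most fits that left out a library called no window either. The rank of the strongest MLX peak differed the other way, by -9.13 percentile points (exact permutation p = 0.005, adjusted p = 0.0698). MXD4 covered 744 to 973 bp in the 6 parental libraries and 1021 to 2098 bp in the 6 resistant ones, with no overlap. MXD3 (538 bp, exact permutation adjusted p = 0.167) and MGA (548 bp, exact permutation adjusted p = 0.126) were not called. Both MLX and MXD4 held the E-box in their promoters, at positions -50 to -45 and -238 to -233, as did 7.27% of all listed promoters. Whether calls and E-boxes went together was not tested.

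Among MYC cofactors and turnover factors, 0 of 12 genes were called by the exact permutation test for phenotype, with 5 at an unadjusted p under 0.05. Over all windows 10.2% were called higher, and 12243 of 32585 had an unadjusted p under 0.05, so these counts are near the background. Among MYC targets 0 of 12 were called, with 6 at an unadjusted p under 0.05. Among targets of the glucose sensors, 1 of 6 tested was called, KLF10, a zinc finger repressor (531 bp, exact permutation adjusted p = 0.0485), while ARRDC4 and G6PC1 had a peak in fewer than 3 libraries. The KLF10 call was lost on the scale of the library total, without flanks and with the replicate block, where no window was called. Of the 6 tested, 5 had an unadjusted p under 0.05 for phenotype, a larger share than over all windows. For treatment 1, 4 and 4 genes of the 3 lists passed unadjusted, beside 4211 of 32585 windows, and 0 passed after adjustment. Whether a list differed from the background was not tested. The median differences of the 3 lists were 29.2%, 36.6% and 36% of the parental mean, beside 34.2% over the windows with a parental mean above 0.

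On the scale of the library total, the windows most like TXNIP over the 12 libraries were SCARNA27 (Pearson r = 0.908), YEATS2 (0.905) and SCUBE3 (0.894), out of 22762 compared. Those most like MYC were DKC1 (0.921), IL6R-AS1 (0.918) and BCRP2 (0.916), out of 22761. Libraries share depth and fragment length across all windows, and covered bases themselves correlated with the library total at r = 0.835 for TXNIP and 0.83 for MYC. These values are descriptions of 12 libraries in 4 groups and carry no test.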

How the data were processed

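The authors aligned paired reads to hg38 with Bowtie2 (version 2.1.0 per the labels), discarded reads that were mitochondrial, duplicated or not uniquely placed, and ran MACS2 in BAMPE mode on each library to give broad peaks. The MACS2 version, control and blacklist are not given in the sources used here. Each deposited list gives positions, a score, a fold over local background and -log10 of the p-value and q-value. The lists hold no counts. Peaks outside chromosomes 1 to 22 and X were dropped, which removed 0.892% of 677901.

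Relative depth was recovered from the background pileup implied by the deposited fold and -log10 p, over the smallest peak width.

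The members and lists were chosen with earlier results of these data known. One marker gene of the line is not reported here. Covered bases were compared by two-sided exact permutation tests within strata (400 assignments, smallest p 0.005), adjusted by Benjamini-Hochberg over every window with a peak in at least 3 libraries. Ranks were tested over windows with a peak in all 12. Fisher's exact test took regions called in 5 to 7 libraries. Named were all members, MLX, MXD3, MXD4 and MGA, up to 3 called genes per further list, the 3 most correlated windows of TXNIP and MYC, and regions differing by 4 or more of 6 libraries; the remaining regions described were chosen after their values were seen. Python 3.11.15, numpy 2.4.6, pandas 2.3.3 and scipy 1.17.1 were used, and the tests were tried on simulated data. Beyond the RefSeq promoter sequences, no genome sequence or exon annotation was used here, so peaks were placed by gene span and listed start only.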

Additional observations from a re-analysis of the deposited data

How the results depend on the processing

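The 22 settings beside the main one changed these values. Members called by phenotype numbered 4 when only peaks with a -log10 q of 3 or more were kept (8368 of 26901 windows called). There MXD1, MNT and MLXIPL joined MYCL. They numbered 3 with equal numbers of top-ranked peaks (6167 of 29887), where MXD1 and MLXIPL joined MYCL. They numbered 0 without flanks (0 of 24166 windows called) and 0 on the scale of the library total (0 of 32585). Leaving out 1 library each gave 2 without resistant untreated replicate 2 and 1 without resistant treated replicate 2. It otherwise gave 0, with no window called at all. The share of windows called without resistant untreated or treated replicate 2 is not given here, so those counts have no background beside them. The replicate numbers did not pair the libraries across all groups. Same-number correlations of deviations ran from -0.107 to 0.2 over 18 pairs, and different-number ones from -0.233 to 0.131 over 36. Between untreated and treated resistant libraries the same-number values were 0.2, 0.198 and 0.00847, and the different-number ones ran from -0.233 to 0.0769. Whether the resistant libraries were paired was not tested. With the replicate block 0 members and 0 of 32585 windows were called, with MYCL at an exact permutation p of 0.0312 and an adjusted p of 0.156. That p is the smallest the block allows, so the loss says nothing about stability, and its difference of 518 bp is the same by construction.

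The phenotype difference of MAX turned to 154 bp at -log10 q of at least 3, 81 bp with top-ranked peaks, 57.5 bp with peaks at least 124 bp wide (chosen after seeing the data), and 16.7, 36.4 and 43.6 bp without parental untreated replicate 3, parental treated replicate 2 or resistant treated replicate 2, in a range of -126 to 43.6 bp over all libraries left out. That of TXNIP turned to -16.5 bp at -log10 q of at least 3 and -78.8 bp without flanks, and that of MXD1 to -55.7 bp without flanks and -68 bp with flanks of 1 kb. Per Mb covered, phenotype differences turned for MYC (-14), MXD1 (-4.04), MXI1 (-7.54) and MNT (-36.2), and treatment differences for MAX (2.84), MXD1 (5.72), MXI1 (13) and MNT (16.7). With the same sign, the phenotype difference of MNT was 131 bp without flanks and the treatment difference of MYCN -36 bp at -log10 q of at least 3. The treatment difference of MXD1 also turned to 2.17 bp at -log10 q of at least 3, and to 1.17 bp both with top-ranked peaks and without resistant untreated replicate 1, in a range of -194 to 1.17 bp over all libraries left out. The cause was not tested.

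Regions gained or lost by treatment in parental cells, 1 in all, became 0 without flanks and 2 with peaks covering at least 50% of a region, and 1 to 4 when leaving out 1 library each (4 without parental untreated replicate 3, 2 without parental untreated replicate 1 or parental treated replicate 2 or 3). In resistant cells, 1 became 0 at -log10 q of at least 3, without flanks, with 1 kb flanks and at 50% cover, 2 with top-ranked peaks, and 1 to 2 when leaving out 1 library each (2 without resistant treated replicate 1 or 2). Between untreated groups, 1 became 2 with top-ranked peaks, 0 at 50% cover and 1 to 3 when leaving out 1 library each (3 without parental untreated replicate 1, 2 without parental untreated replicate 3 or resistant untreated replicate 3). Between treated groups, 4 became 1 without flanks, 2 with 1 kb flanks and 4 to 7 when leaving out 1 library each, with 7 reached without resistant treated replicate 2. The shares of all regions gained or lost were not computed under these settings, so the counts have no background beside them. Leaving out a library also loosens the rule, since its group then holds fewer libraries. In Fisher's test by phenotype 1 member region passed at -log10 q of at least 3 (307 of 6568 regions).

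Depth is known only in relative terms, so no counting interval was given. A missing peak is one not called in that list, not a measured absence of open chromatin.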
